A study of Mus musculus with 11 samples.

Results

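A set of 40 genes of DNA replication and S phase was followed in mouse jaw joint cartilage, with and without estradiol and with and without estrogen receptor alpha. The 40 genes are a list named by function, chosen with earlier results of these data known, and fall into 7 roles. All 40 were among the 23420 gene symbols of the count table, and all 40 were among the 14531 genes that passed the filter on low counts. RNA came from whole mandibular condylar fibrocartilage, the tissue that covers the head of the lower jaw, of C57BL/6 female mice sequenced in 11 libraries. All groups were ovariectomized at 6 weeks of age, received a pellet for 1 week and gave tissue at 7 weeks. The WT placebo group (2 libraries) was wild type and had a placebo pellet. The WT estradiol group (3 libraries) was wild type and had a pellet of 0.01 mg estradiol made for 60-day release. The KO placebo and KO estradiol groups (3 libraries each) had the same pellets in ERalphaKO mice, which lack estrogen receptor alpha, and the labels do not say how the gene was disrupted. The labels do not say that each library is a separate animal, so p-values measure only the spread between these libraries, which may be technical.

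Before a cell divides it copies its genome once. In G1 the origin recognition complex, Cdc6 and Cdt1 load the Mcm2 to Mcm7 helicase onto DNA (licensing), and at the start of S phase Mcm10, Cdc45 and the GINS complex switch it on. Polymerases, a sliding clamp and its loader, and enzymes of nucleotide supply then carry out synthesis, while other proteins rebuild chromatin and copy DNA methylation. Many of these genes are transcribed by E2F factors at the G1 to S boundary, and in growing condylar cartilage such genes mark the proliferating layer beneath the joint surface.

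Library totals ran from 15.7 to 25.5 M counts. Esr1, which encodes the receptor, was at 13.4 and 6.60 CPM (counts per M of the scaled library total) in WT placebo, 7.89, 6.76 and 6.43 in WT estradiol, 4.86, 3.99 and 2.68 in KO placebo and 3.41, 2.55 and 3.75 in KO estradiol. Every KO library was below every WT library, though counts over the whole gene do not show the deleted part. Of the 17 cartilage markers 15 were in the table and had counts in every group, with sums of 11691 to 31169 CPM. Markers of blood and muscle were also present and differed between groups. The 15 neutrophil lineage markers summed to 226 and 509 CPM in WT placebo, 8.76 to 44.4 in WT estradiol, 1.61, 765 and 171 in KO placebo 1 to 3, and 1309, 4733 and 1640 in KO estradiol 1 to 3. The 16 B lineage markers summed to 76.9 and 85.5, 23.6 to 28.2, 122 to 256 and 240 to 421 CPM in the same order of groups, and the 20 muscle markers to 51.2 and 1751, 40.6 to 316, 113 to 967 and 15.3 to 20.2. The precursor of ribosomal RNA, Rn45s, made up 16.04% of the counts of WT placebo 2 and at most 3.13% of those of any other library. In this bulk tissue, fewer cells of a type and less RNA per cell cannot be told apart.

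Promoters of the members were examined because many S phase genes are E2F targets. RefSeq promoter windows of build GRCm38.p6, from 250 bases before to 50 bases after a gene's start, were matched by symbol for 34 of the 40 members. Mcm4, Gins1, Gins2, Prim2, Pole and Ccne2 had none in the table used. The E2F letters searched were TTTCCCGC, TTTCGCGC, TTTGCCGC and TTTGGCGC on both strands, and matches may overlap. They occurred in 14 of 41 member windows (34.1%, since some genes have several starts) and in 2.26% of all 32851 windows. The stretches below are from 7 members that were called in at least 1 comparison and have the letters before the start. They read 5′ to 3′ on the gene's own strand with the E2F letters in capitals. They lie at chr5:138172020-138172069 (minus strand, Mcm7), chr8:75109335-75109388 (plus, Mcm5), chr11:98907992-98908041 (plus, Cdc6), chrX:93632265-93632314 (minus, Pola1), chr17:56304107-56304156 (plus, Uhrf1), chr9:20952814-20952863 (minus, Dnmt1) and chr19:38930907-38930956 (plus, Hells).
Mcm7: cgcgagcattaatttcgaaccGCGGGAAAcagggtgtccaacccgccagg
Mcm5: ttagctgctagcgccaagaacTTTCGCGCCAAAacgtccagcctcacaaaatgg
Cdc6: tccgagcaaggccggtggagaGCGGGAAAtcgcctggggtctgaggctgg
Pola1: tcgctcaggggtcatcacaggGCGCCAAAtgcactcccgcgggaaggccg
Uhrf1: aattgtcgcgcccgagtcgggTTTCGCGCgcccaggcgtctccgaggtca
Dnmt1: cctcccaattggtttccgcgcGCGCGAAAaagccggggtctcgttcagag
Hells: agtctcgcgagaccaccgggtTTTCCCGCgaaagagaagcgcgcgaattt

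In Mcm5 the capitals hold 2 overlapping matches, 1 on each strand. The other members with E2F letters in a window were Orc1, Cdt1, Mcm3, Mcm6, Pold1, Rfc3 and Lig1. The CCAAT box (CCAAT, both strands) was in 53.7% of member windows and 37.4% of all windows, and the cell cycle homology letters (TTTGAA, both strands) in 9.76% and 17.9%. The full palindromic estrogen response element was in 0 member windows and in 0.07% of all windows. A match is a description of letters and not a bound site. The 14 members with E2F letters had a median log2 difference of 0.51 between estradiol and placebo in KO with 3 called, and the 20 members without them had 0.58 with 10 called.

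Estradiol went with higher levels of many S phase genes in KO tissue, and no member passed the test in WT tissue. Summed over the 40 members, the level was 796 and 779 CPM in WT placebo and 763, 751 and 742 CPM in WT estradiol. It was 770, 707 and 621 CPM in KO placebo and 947, 1221 and 930 CPM in KO estradiol. All 3 KO estradiol libraries were above the other 8 libraries, and KO estradiol 2 stood highest. KO estradiol 2 was the highest library of its group in 39 of 40 members (36.9% of all genes tested). It was the highest of all 11 libraries in 35, a count for which no share over all genes was taken. KO placebo 3 was the lowest of its group in 29 of 40 (39.3% of all genes).

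**Figure D1:**
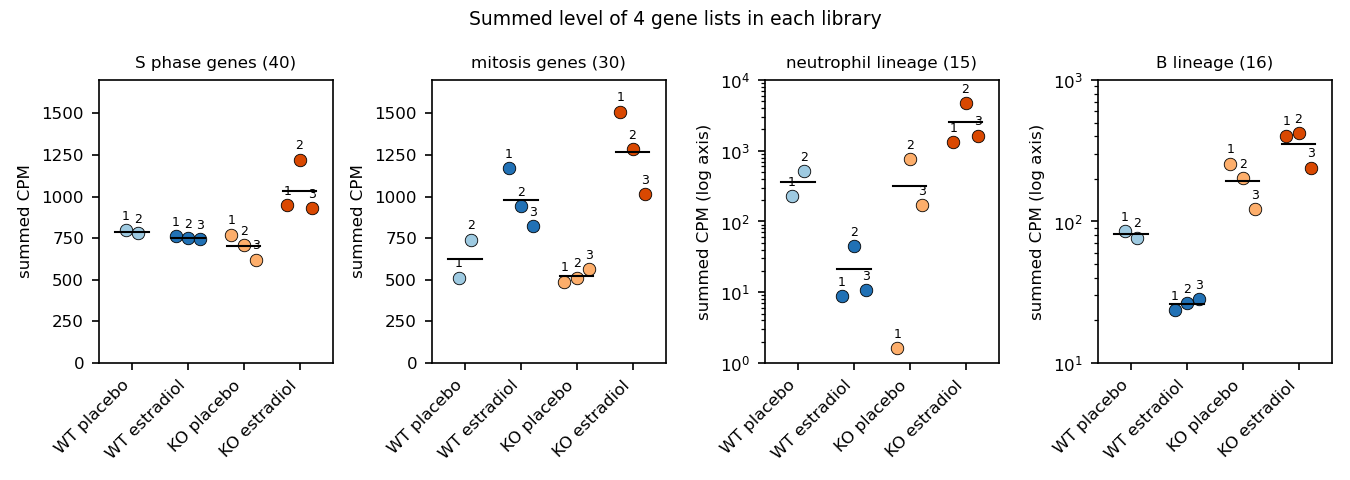
Summed level (CPM) of 4 gene lists in each library, with 1 point per library numbered by replicate and a line at the group mean; the neutrophil and B lineage panels have log axes. The S phase sum lies between 930 and 1221 CPM in KO estradiol and between 621 and 796 CPM in all other libraries, while the mitosis sum is higher under estradiol in both genotypes.

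**Figure D2:**
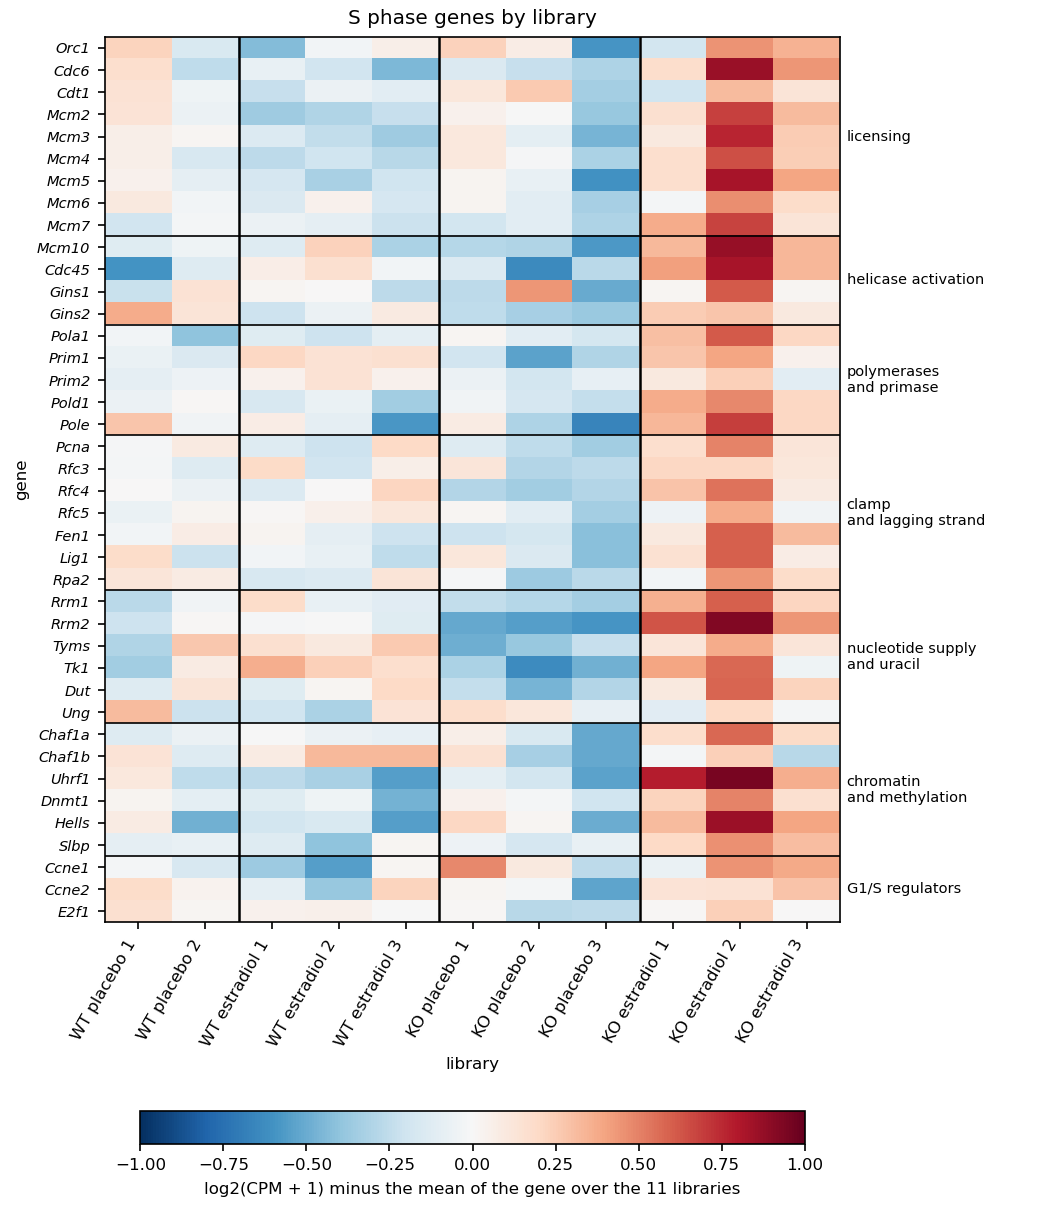
Level of each of the 40 genes in each library, as log2(CPM + 1) minus the gene's mean over the 11 libraries, ordered by role; red is above and blue below that mean. The KO estradiol columns are mostly red, deepest in KO estradiol 2, the highest library for 35 genes, and KO placebo 3 is the lowest library for 21. No share over all genes was taken for these counts.

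The first comparison asked what estradiol changed where the receptor is missing. Of the 40 members 13 rose in KO tissue and 0 fell (edgeR's quasi-likelihood test, Benjamini-Hochberg adjusted across all genes tested), where 2.36% of all genes tested were called higher and 0.365% lower. The median log2 difference of the members was 0.52, against -0.0026 for all genes. The log2 difference was above 0 in 39 of 40 members and in 49.5% of all genes, and 26 members had every KO estradiol library above every KO placebo library (12.4% of all genes, and 12.4% in the other direction). An unadjusted p under 0.05 was found in 31 members and in 16.5% of all genes. The number of calls depended on single libraries. Without KO placebo 1, KO placebo 2, KO placebo 3 or KO estradiol 2, each in turn, 3 members remained called, in each case Rrm1, Rrm2 and Uhrf1, and the median was 0.60, 0.56, 0.45 and 0.40. Calls over all genes also fell in these fits, from 396 to 105, 139, 241 and 126. With WT placebo 2 and KO placebo 1 both left out, 5 members were called, those 3 with Cdc45 and Tk1, at a median of 0.60, and 134 genes in all. Between KO placebo and KO estradiol, same-numbered libraries deviated together. With the replicate number as a block 14 members were called in KO of 629 genes in all, Pcna was lost, and Pole and Tyms were gained.

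The enzymes of nucleotide supply held the member with the greatest difference. Ribonucleotide reductase, the enzyme that turns ribonucleotides into DNA precursors, has a large subunit (Rrm1) and a small one made in S phase (Rrm2). Rrm2 was at 32.8 and 38.2 CPM in WT placebo, 37.6, 37.8 and 34.8 in WT estradiol, 26.3, 25.7 and 24.9 in KO placebo and 59.3, 73.2 and 51.9 in KO estradiol. The KO estradiol libraries were above all others and the KO placebo libraries below all others. In KO, Rrm2 rose from 25.6 ± 0.73 to 61.5 ± 11 CPM (SD, n = 3 and 3), a log2 difference of 1.26 (SE 0.12, adjusted p = 0.000866), and it passed under all 19 alternative settings (adjusted p up to 0.0136). Rrm1 was at 48.9 and 57.9 CPM in WT placebo, 67.3, 56.3 and 54.7 in WT estradiol, 49.9, 48.4 and 46.6 in KO placebo and 76.2, 90.1 and 69.0 in KO estradiol. Again the KO estradiol libraries were above all others, while KO placebo overlapped with WT placebo. In KO, Rrm1 rose by 0.70 log2 units (SE 0.11, adjusted p = 0.00856) and passed under all 19 settings (adjusted p up to 0.0431). Tk1, which salvages thymidine, was at 10.4 and 14.4 CPM in WT placebo, 17.6, 16.1 and 15.3 in WT estradiol, 10.7, 8.35 and 9.39 in KO placebo and 18.0, 20.6 and 13 in KO estradiol. The estradiol libraries were above the placebo libraries within each genotype. Tk1 rose in KO by 0.86 (SE 0.18, adjusted p = 0.0273) and had a WT difference of 0.40 (SE 0.20, adjusted p = 0.4). Dut, which removes dUTP, was at 16.6 and 20.1, 16.7, 18.5 and 21.1, 15.3, 12.9 and 14.7, and 19.5, 27.7 and 21.4 CPM in the same order of groups. Its KO placebo libraries were below all others, and Dut rose in KO by 0.68 (SE 0.15, adjusted p = 0.033). Both lost their call without KO placebo 1, 2 or 3 or KO estradiol 2, with adjusted p up to 0.109 for Tk1 and 0.122 for Dut, and Dut also without WT estradiol 2 or KO estradiol 3. Tyms, which makes thymidylate, had a log2 difference of 0.62 (adjusted p = 0.0577, and 0.0361 with the replicate block). Ung, which cuts uracil out of DNA, had the lowest difference of the 40 at -0.06 (adjusted p = 0.931) and stood between 3.36 and 5.76 CPM over all libraries.

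Among the genes of chromatin and methylation, Uhrf1, which reads half-methylated DNA and brings in the methyltransferase Dnmt1, rose. Its level was 30.1 and 23.3 CPM in WT placebo, 23.2, 22.1 and 18.8 in WT estradiol, 26.0, 24.4 and 19.0 in KO placebo and 48.8, 54.7 and 36.1 in KO estradiol. The KO estradiol libraries were above all others, and the other 3 groups overlapped apart from WT estradiol lying just below WT placebo. In KO the log2 difference was 1.01 (SE 0.17, adjusted p = 0.011), with adjusted p up to 0.0497 over the 19 settings. Slbp, which binds the stem-loop of histone messages, was at 24.7, 22.7 and 24.4 CPM in KO placebo and 29.7, 35.6 and 32.1 CPM in KO estradiol. These groups did not overlap, and the log2 difference of 0.44 (SE 0.11, adjusted p = 0.0645) did not pass. Chaf1a and Chaf1b, subunits of the histone chaperone CAF-1, had log2 differences of 0.54 and 0.21, Dnmt1 of 0.36 and the remodeller Hells of 0.66, and none of these passed.

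Of the 4 genes of helicase activation 2 were called. Cdc45, part of the working helicase, was at 5.11 and 7.48 CPM in WT placebo, 8.68, 9.38 and 8.08 in WT estradiol, 7.44, 4.97 and 6.71 in KO placebo and 11.3, 15.4 and 10.7 in KO estradiol. Estradiol libraries were above placebo libraries in both genotypes. In KO it rose by 0.96 log2 units (SE 0.20, adjusted p = 0.0272), and in WT the difference was 0.47 (SE 0.23, adjusted p = 0.385). Mcm10, which helps to switch on the helicase, was at 5.44 and 5.78 CPM in WT placebo, 5.41, 7.22 and 4.62 in WT estradiol, 4.73, 4.69 and 3.70 in KO placebo and 7.76, 11.8 and 7.82 in KO estradiol. Its KO estradiol libraries were above all others, and in KO it rose by 1.06 (SE 0.22, adjusted p = 0.026). Both genes lost the call without KO placebo 1, 2 or 3 or KO estradiol 2, with adjusted p up to 0.109 for Cdc45 and 0.0987 for Mcm10. Gins2, of the GINS complex, was at 7.27 and 5.99 CPM in WT placebo, 4.54, 5.15 and 5.81 in WT estradiol, 4.35, 4.08 and 3.95 in KO placebo and 6.64, 6.77 and 5.85 in KO estradiol. Its KO placebo libraries were the lowest and WT placebo overlapped with KO estradiol, and the KO difference was 0.63 (adjusted p = 0.056). Gins1, of the same complex, had 0.38 (adjusted p = 0.631).

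Of the 9 licensing genes 1 was called, although 9 of 9 had a log2 difference above 0. Mcm7, a helicase subunit, was at 35.5 and 40.1 CPM in WT placebo, 39.0, 38.3 and 35.0 in WT estradiol, 35.8, 37.7 and 32.7 in KO placebo and 53.0, 65.6 and 44.7 in KO estradiol. It rose in KO by 0.62 log2 units (SE 0.12, adjusted p = 0.0242), and lost the call without KO placebo 1, 2 or 3 or KO estradiol 2 (adjusted p up to 0.0944). Cdc6, a loader of the helicase, was at 7.16 and 5.10 CPM in WT placebo, 5.92, 5.38 and 4.33 in WT estradiol, 5.58, 5.20 and 4.88 in KO placebo and 7.20, 12.2 and 8.89 in KO estradiol. Each KO estradiol library was above all others, by a narrow margin for KO estradiol 1, and the KO difference of 0.85 (SE 0.21, adjusted p = 0.0529) fell just short. It passed under 6 of the 19 alternative settings, DESeq2 among them. The helicase subunits Mcm2, Mcm3, Mcm4, Mcm5 and Mcm6 had KO differences of 0.52, 0.55, 0.45, 0.70 and 0.36, the origin subunit Orc1 of 0.46 and the loader Cdt1 of 0.07, and none passed.

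For the polymerases, Pold1, the catalytic subunit of polymerase delta, was at 21.9 and 23.0 CPM in WT placebo, 20.4, 21.8 and 17.8 in WT estradiol, 22.2, 20.2 and 19.2 in KO placebo and 29.9, 32.3 and 26.5 in KO estradiol. Prim1, the catalytic primase subunit that starts each new strand, was at 9.96 and 9.39, 12.3, 11.7 and 11.9, 9.09, 6.94 and 8.32, and 13.0, 14.1 and 10.9 CPM in the same order of groups. Pold1 was higher in KO estradiol than in any other library, whereas Prim1 was higher with estradiol than with placebo in both genotypes. In KO they rose by 0.52 (SE 0.11, adjusted p = 0.028) and 0.64 (SE 0.14, adjusted p = 0.0306) on the log2 scale. The calls of both were lost without KO placebo 1, 2 or 3 or KO estradiol 2, with adjusted p up to 0.113 for Pold1 and 0.124 for Prim1, and that of Prim1 also without WT estradiol 1 or 2 or KO estradiol 1. Pola1 and Pole, catalytic subunits of polymerases alpha and epsilon, had KO differences of 0.51 and 0.77, and the primase subunit Prim2 of 0.21, and none passed, though Pole did with the replicate block (adjusted p = 0.0257).

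At the clamp and on the lagging strand, 3 of 7 genes were called. Fen1, which trims the flaps between fragments, was at 15 and 16.1 CPM in WT placebo, 15.6, 14.3 and 13.1 in WT estradiol, 13.1, 13.5 and 11.2 in KO placebo and 16.5, 23.6 and 19.3 in KO estradiol. Rfc4, of the clamp loader, was at 7.59 and 7.21, 6.79, 7.59 and 8.94, 6.00, 5.72 and 5.99, and 9.44, 11.5 and 8.13 CPM in the same order. The KO estradiol and KO placebo libraries did not overlap for either gene. They rose in KO by 0.65 (SE 0.14, adjusted p = 0.0309) and 0.71 (SE 0.16, adjusted p = 0.036) on the log2 scale. Pcna, the sliding clamp itself, was at 57.3 and 61.6, 52.7, 50.1 and 66.5, 52.9, 48.4 and 45.2, and 65.0, 82.1 and 62.9 CPM. KO estradiol was above KO placebo and overlapped with WT estradiol. In KO, Pcna rose by 0.52 (SE 0.13, adjusted p = 0.0494), close to the threshold, and lost the call in 15 of 19 settings (adjusted p up to 0.189), with the replicate block (0.0646) and with any library left out except WT estradiol 3. Fen1 and Rfc4 lost theirs in 8 and 9 settings (adjusted p up to 0.116 and 0.143). For both these included the fits without KO placebo 1, 2 or 3, WT estradiol 2 or KO estradiol 2, for Fen1 also KO estradiol 3, and for Rfc4 also WT estradiol 1 or KO estradiol 1. The clamp loader subunits Rfc3 and Rfc5, the ligase Lig1 and the single-strand binding subunit Rpa2 had differences of 0.33, 0.26, 0.44 and 0.44, and none passed.

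The 3 G1/S regulators had the lowest median of the 7 roles in KO, 0.27. E2f1, the transcription factor of the S phase programme, was at 15.8 and 14.2 CPM in WT placebo, 14.4, 14.5 and 13.9 in WT estradiol, 14.1, 11.3 and 11.5 in KO placebo and 14.1, 16.7 and 14.0 in KO estradiol. Ccne2, a cyclin that starts S phase, was at 15.8 and 14.2, 12.8, 10.4 and 16.3, 14.0, 13.6 and 9.30, and 15.3, 15.4 and 17.0 CPM in the same order. Their KO differences were 0.27 (SE 0.12, adjusted p = 0.278) and 0.37 (SE 0.18, adjusted p = 0.327). The sister cyclin Ccne1 had 0.15 (adjusted p = 0.82). None of these 3 genes was called in any of the 5 comparisons.

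Values of the blood and muscle markers moved in the same comparison. Neutrophil lineage sums were 1309 to 4733 CPM in KO estradiol and 1.61 to 765 CPM in KO placebo, with all 15 markers counted in the KO estradiol group and 1 of 15 called, Fcnb, at 0, 1.17 and 1.06 CPM in KO placebo and 4.63, 25.7 and 10.5 CPM in KO estradiol (adjusted p = 0.047). B lineage sums were 240 to 421 and 122 to 256 CPM, and the groups overlapped, with 15 of 15 tested markers above 0, 6 at an unadjusted p under 0.05 and 1 called, Blnk at log2 0.78 (adjusted p = 0.0302), and 5 called higher in DESeq2. The blood progenitor markers (9 of 10 in the table) summed to 255 to 316 CPM in KO estradiol and 233 to 249 CPM in KO placebo, and of these Myb was called, at log2 1.51 (adjusted p = 0.0248). The erythroid markers (9 of 10 in the table, Hba-a1 and Hbb-b1 at 0 in every library) overlapped at 287 to 627 and 327 to 385 CPM, with 0 of 7 tested called in edgeR, 1 at an unadjusted p under 0.05, and 0 called in DESeq2. Muscle sums were 15.3 to 20.2 CPM in KO estradiol and 113 to 967 in KO placebo, with 0 of 19 tested called in edgeR, 18 at an unadjusted p under 0.05 and 16 called lower in DESeq2. Within KO placebo, sample 1 had the lowest neutrophil sum (1.61 CPM) and the highest S phase sum (770 CPM), and within KO estradiol, sample 2 had the highest of both (4733 and 1221 CPM). The part of these cells in the S phase difference was not tested.

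The same question in WT tissue asked what estradiol changed with the receptor in place. Of the 40 members 0 were called in edgeR, where 0.654% of all genes were called higher and 0.895% lower, and 1 of 40 (Mcm2) had an unadjusted p under 0.05 against 14.0% of all genes. DESeq2 also called 0 (1.59% and 2.66% of all genes). The median log2 difference was -0.10, with 15 members above 0 (50.6% of all genes) and 25 below, and a range of -0.36 (Gins2) to 0.47 (Cdc45). The 9 licensing genes were all below 0, at a median of -0.21, and for Mcm2, Mcm3, Mcm4, Mcm5 and Cdt1 each WT estradiol library was below both WT placebo libraries. Over the 40 members 8 were separated downwards and 4 upwards (Cdc45, Prim1, Prim2 and Tk1), where 13.8% and 13.2% of all genes were. Rrm2 differed by 0.05 on the log2 scale (95% interval -0.26 to 0.36) and Uhrf1 by -0.32 (-0.77 to 0.12). A WT rise as large as the KO estimate lay outside both intervals, and these are the 2 members called in the interaction test below. Such a rise lay inside the intervals of Tk1 (-0.07 to 0.87), Cdc45 (-0.06 to 1.01) and Prim1 (-0.06 to 0.66), for Prim1 by a narrow margin. It lay outside those of the other members called in KO. These intervals leave out the error of the KO estimate, and members called in KO were picked by that estimate. The interaction test of edgeR, which carries both errors, called no member other than Rrm2 and Uhrf1. Neutrophil lineage sums were lower in WT estradiol (8.76 to 44.4 CPM) than in WT placebo (226 and 509), B lineage sums too (23.6 to 28.2 against 76.9 and 85.5), and their part in these values was not tested.

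**Figure D3:**
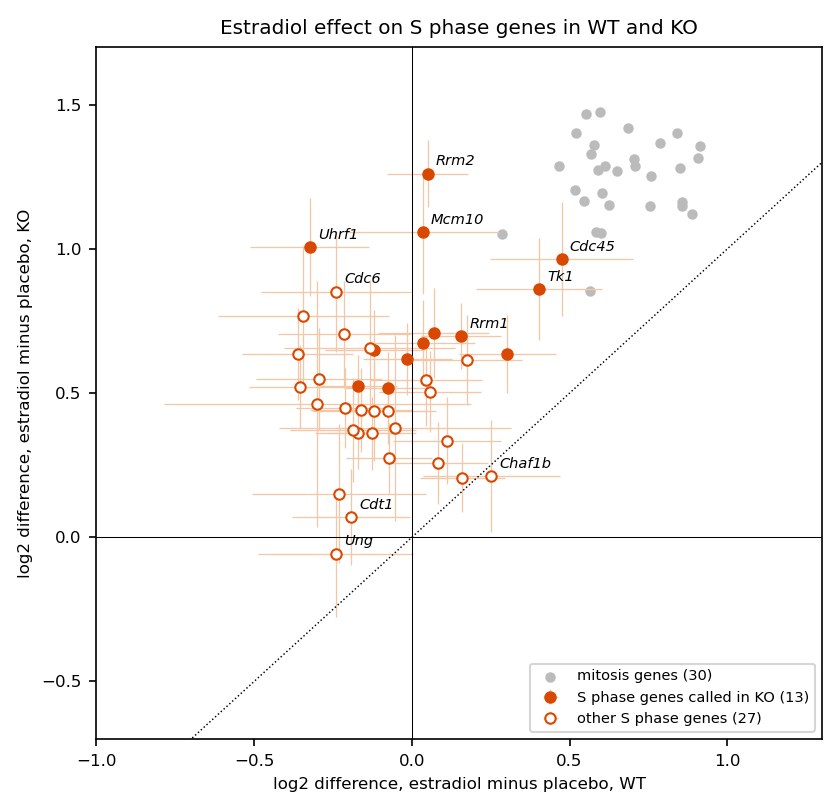
Log2 difference between estradiol and placebo in WT (horizontal axis) and in KO (vertical axis) for the 40 S phase genes in orange, filled where called in KO, with bars of 1 SE, and for 30 mitosis genes in grey; the dotted line marks equal effects. The S phase genes except Chaf1b and all 30 mitosis genes lie above the dotted line. The S phase genes spread on both sides of 0 in WT, whereas the 30 mitosis genes are above 0 in both.

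Whether the estradiol effect differed between genotypes was tested as an interaction (WT effect minus KO effect). Of the 40 members 0 were called higher and 2 lower, Rrm2 and Uhrf1, where 0.310% of all genes were called higher and 0.840% lower. For Rrm2 the interaction was -1.21 log2 units (SE 0.17, adjusted p = 0.00491) and for Uhrf1 -1.33 (SE 0.25, adjusted p = 0.0285). The median over the 40 was -0.56, with 1 above 0 (Chaf1b at 0.04, against 49.8% of all genes), and 22 had an unadjusted p under 0.05 against 11.6% of all genes. By role the medians were -0.76 for licensing, -0.74 for helicase activation, -0.45 for the polymerases, -0.59 at the clamp, -0.50 for nucleotide supply, -0.52 for chromatin and methylation and -0.38 for the G1/S regulators. DESeq2 called 7 lower and 0 higher (2.53% and 0.850% of all genes). Rrm2 lost its call in 1 setting, with WT placebo 2 and KO placebo 1 both left out (adjusted p = 0.0633). Uhrf1 lost it in 7, among them the fits without WT placebo 1, WT estradiol 1, 2 or 3, KO placebo 3 or KO estradiol 2, with adjusted p up to 0.0963. Next in order of p were Pold1 (-0.69, adjusted p = 0.0635), Gins2 (-1.0, adjusted p = 0.0647) and Mcm2 (-0.88, adjusted p = 0.0788), which were chosen after their values were seen and did not pass.

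**Figure D4:**
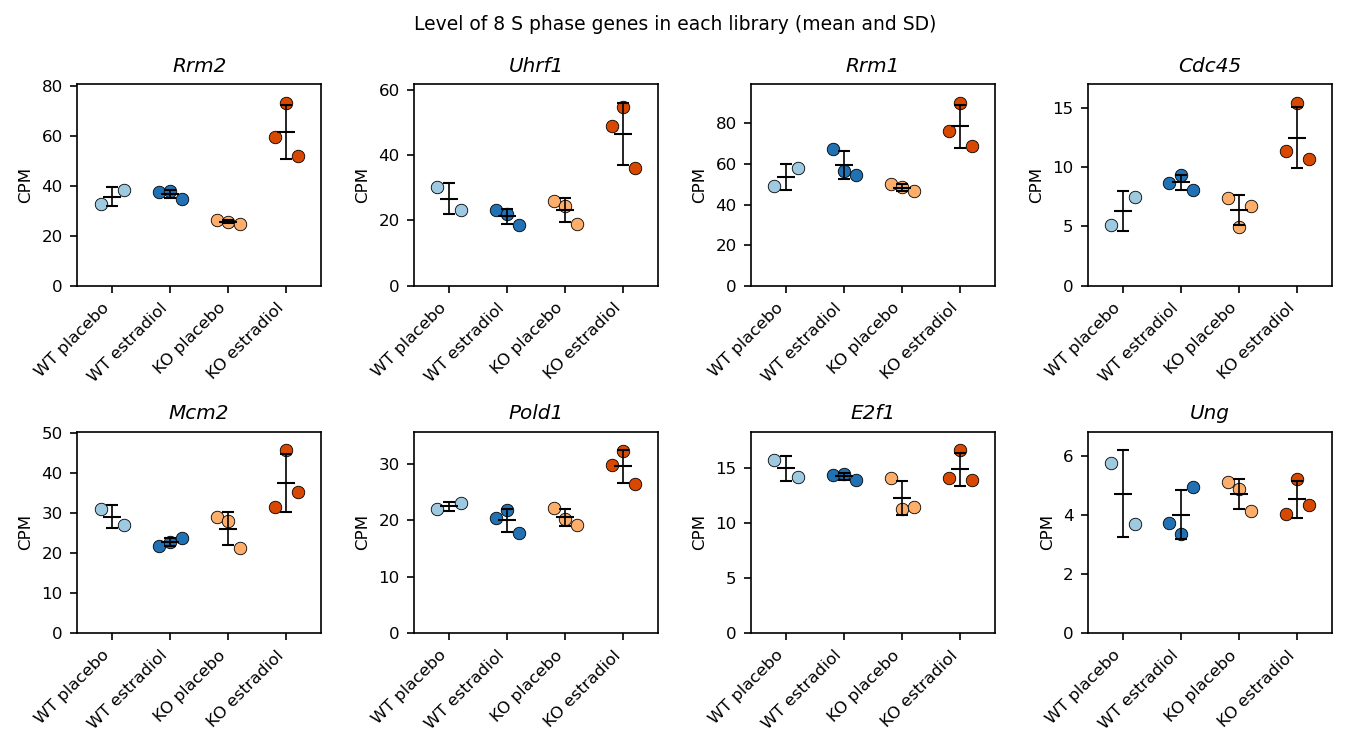
Level (CPM) of 8 of the S phase genes by group, with 1 point per library and bars for the mean and SD (n = 2 in WT placebo, 3 in the other groups). In Rrm2, Uhrf1, Rrm1, Cdc45, Mcm2 and Pold1 the KO estradiol points are above the other groups, and in E2f1 and Ung the groups overlap.

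Under placebo, no member differed past the threshold between KO and WT. Of the 40 members 0 were called in edgeR, where 0.00688% of all genes were (1 gene, lower), and 0 in DESeq2 (0.146% higher and 0.118% lower). A total of 3 members had an unadjusted p under 0.05, against 9.21% of all genes. The median log2 difference between KO and WT was -0.18 with 4 of 40 above 0 (49.3% of all genes), 11 members had every KO placebo library below both WT placebo libraries and 0 above, against 13.8% and 13.2% of all genes. Rrm2 was among these 11, at -0.47 (SE 0.13, 95% interval -0.78 to -0.16, adjusted p = 0.468), and so was Gins2 at -0.68 (SE 0.18, adjusted p = 0.468). Cell type markers also differed in this comparison. Of the 15 cartilage markers 14 were below 0, at a median of -0.44, with 8 lower in every KO placebo library, 7 at an unadjusted p under 0.05 and 0 called in edgeR (2 lower in DESeq2). Of the 15 tested B lineage markers 15 were above 0, at a median of 1.16, with 10 higher in every KO placebo library, 11 at an unadjusted p under 0.05 and 0 called in edgeR (3 higher in DESeq2). Their part in the members' values was not tested. The median of the S phase genes by role ran from -0.37 for nucleotide supply to -0.06 for chromatin and methylation. Over the 40 members the median was -0.07 without KO placebo 3 and -0.29 without KO placebo 1.

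Under estradiol, KO tissue held more S phase transcripts than WT tissue. Of the 40 members 15 were higher in KO and 0 lower, where 7.27% of all genes were called higher and 4.2% lower, and 23 had an unadjusted p under 0.05 against 26.9% of all genes. The median log2 difference was 0.41, and 39 of 40 were above 0 (49.8% of all genes), with Chaf1b at -0.27. In 21 members each KO estradiol library was above each WT estradiol library (17.7% of all genes, and 16.9% in the other direction). By role, 6 of 9 licensing genes were called, 0 of 4 of helicase activation, 2 of 5 of the polymerases, 1 of 7 at the clamp, 2 of 6 of nucleotide supply, 4 of 6 of chromatin and methylation and 0 of 3 G1/S regulators. Without KO estradiol 2, 5 members were called at a median of 0.30, without WT estradiol 3, 6, and without WT estradiol 2, 9. Calls over all genes also fell in these fits, from 1667 to 867, 919 and 1164. This comparison shares its KO estradiol libraries with estradiol against placebo in KO, and its WT estradiol libraries with that in WT.

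The helicase subunits made up 5 of the 6 called licensing genes. Mcm2 was at 31.0 and 26.9 CPM in WT placebo, 21.7, 22.6 and 23.8 in WT estradiol, 28.9, 27.9 and 21.3 in KO placebo and 31.5, 45.6 and 35.2 in KO estradiol. Mcm4 was at 33.5 and 28.6, 26.5, 27.7 and 26.3, 34.5, 31.7 and 25.5, and 36.2, 50.8 and 38.2 CPM in the same order. In both genes the WT estradiol libraries were below WT placebo and the KO estradiol libraries above all others. Mcm2 was higher in KO by 0.72 (SE 0.15, adjusted p = 0.00824) and passed under all 19 settings (adjusted p up to 0.0382). Mcm4 was higher by 0.63 (SE 0.14, adjusted p = 0.0125), with an adjusted p of 0.052 without WT estradiol 3. Mcm3 was at 29.9 and 29.2 CPM in WT placebo, 26.0, 24.1 and 22.2 in WT estradiol, 30.9, 26.8 and 20.6 in KO placebo and 30.7, 49.5 and 34.4 in KO estradiol. Mcm5 was at 28.2 and 25.5, 24.2, 21.6 and 23.7, 27.8, 25.8 and 17.6, and 30.8, 49.2 and 36.2 CPM in the same order. KO placebo 3 was the lowest and KO estradiol 2 the highest library for both. They were higher in KO under estradiol by 0.66 (SE 0.18, adjusted p = 0.0353) and 0.74 (SE 0.19, adjusted p = 0.0262). Mcm7 was higher by 0.54 (SE 0.12, adjusted p = 0.016) and Cdc6 by 0.85 (SE 0.21, adjusted p = 0.0218). Without WT estradiol 3 or KO estradiol 2 the calls of Mcm3, Mcm5, Mcm7 and Cdc6 were lost, with adjusted p up to 0.131, 0.0822, 0.0641 and 0.088. Without WT estradiol 2 Mcm3, Mcm5 and Cdc6 were lost, without WT estradiol 1 or KO estradiol 3 Mcm3 and Mcm5, and without KO placebo 2 Mcm3.

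Among the chromatin genes, Uhrf1 was higher in KO than in WT under estradiol by 1.12 log2 units (SE 0.17, adjusted p = 0.00177), from 21.3 ± 2.3 to 46.5 ± 9.5 CPM (SD, n = 3 and 3). It passed under all 19 settings (adjusted p up to 0.0133). Its partner Dnmt1, which copies methylation onto the new strand, was at 59.4 and 54.3 CPM in WT placebo, 53.6, 56.4 and 41.7 in WT estradiol, 59.9, 57.6 and 50.8 in KO placebo and 68.3, 82.7 and 65.2 in KO estradiol. Hells, a remodeller needed for DNA methylation, was at 10.01 and 6.46, 8.17, 8.37 and 6.10, 11.03, 9.57 and 6.37, and 12.0, 17.9 and 12.7 CPM in the same order. In both, KO estradiol lay above the other 8 libraries. Dnmt1 was higher in KO under estradiol by 0.51 (SE 0.12, adjusted p = 0.0204) and Hells by 0.91 (SE 0.24, adjusted p = 0.0306). Slbp, at 24.0 and 24.3 CPM in WT placebo and 23.4, 19.2 and 26.0 CPM in WT estradiol, was below its KO estradiol values in all of these libraries and was higher in KO by 0.50 (SE 0.11, adjusted p = 0.0145). Dnmt1 and Hells lost the call without WT estradiol 3 or KO estradiol 2 (adjusted p up to 0.0805 and 0.118), Hells also without WT estradiol 1 or 2 or KO estradiol 3, and Slbp without KO estradiol 2 (0.0609).

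Of the remaining called genes, Rrm2 was higher in KO under estradiol by 0.74 (SE 0.11, adjusted p = 0.00174) and Pold1 by 0.57 (SE 0.11, adjusted p = 0.00651), and both passed under all 19 settings (adjusted p up to 0.0102 and 0.0295). Pola1, the catalytic subunit of the polymerase that begins each fragment, was at 12.4 and 9.32 CPM in WT placebo, 11.5, 10.8 and 11.7 in WT estradiol, 12.8, 11.6 and 11 in KO placebo and 15.8, 19.8 and 14.7 in KO estradiol. Its KO estradiol libraries were above all others, and it was higher in KO under estradiol by 0.57 (SE 0.14, adjusted p = 0.0239). Rrm1 was higher by 0.40 (SE 0.11, adjusted p = 0.0391) and Fen1 by 0.46 (SE 0.14, adjusted p = 0.0493). Pola1 lost the call without WT estradiol 1, 2 or 3 or KO estradiol 2 (adjusted p up to 0.0938). Rrm1 lost it without WT estradiol 2 or 3, KO placebo 1, 2 or 3, or KO estradiol 1 or 2 (adjusted p up to 0.145), and Fen1 without every library in turn except KO estradiol 1 (up to 0.18). Under estradiol the neutrophil sums (8.76 to 44.4 CPM in WT, 1309 to 4733 in KO) and B lineage sums (23.6 to 28.2 and 240 to 421) also differed, with 11 of 15 and 15 of 15 tested markers called higher in KO. Vpreb2 of the B lineage list was at 0 in every WT estradiol library. The part of these cells in the 15 calls was not tested.

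A second list of 38 genes of the replication machinery that are not members was set beside the 40. In WT 0 were called in edgeR and in DESeq2, with 1 at an unadjusted p under 0.05 and a median of 0.11. In KO 8 rose and 0 fell at a median of 0.32, among them Dbf4 and Cdc7, which form the kinase that fires origins, Clspn, Asf1b, Atad2, Brip1 and Msh6. Asf1b, a histone chaperone, rose by 1.24 (SE 0.16, adjusted p = 0.00404) and Atad2, a chromatin reader, by 0.68 (SE 0.09, adjusted p = 0.00526), and both passed under all 19 settings. Msh6 lost the call in 14 of 19 settings (adjusted p up to 0.153), among them RLE scaling, the replicate block (0.0506) and every library left out except WT placebo 2, WT estradiol 3 and KO estradiol 3. Cdc7 and Clspn lost it without KO placebo 1, 2 or 3 or KO estradiol 2 (up to 0.0902 and 0.113), Cdc7 also without KO estradiol 3, and Brip1 without KO placebo 2 or KO estradiol 2 (up to 0.063). Between genotypes under estradiol 7 were higher in KO, with Atad2 at 0.53 and the mismatch repair gene Msh6 at 0.52 (adjusted p = 0.00337 for both). Of these 7, Brip1, Clspn and Dna2 lost the call without WT estradiol 1 or 2 or KO estradiol 2. Under placebo 0 were called in edgeR and in DESeq2, and 1 had an unadjusted p under 0.05.

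The cyclins and E2F factors outside the list moved in different directions. Of 22 such genes, 2 fell with estradiol in WT and 8 rose in KO. Of the 8, Skp2 lost the call in 13 of 19 settings, among them the replicate block (adjusted p = 0.0507) and every library left out except WT placebo 2 and WT estradiol 3 (adjusted p up to 0.15). Rbl1 lost it in 8 (up to 0.151), among them the fits without WT estradiol 1 or 2, KO placebo 1, 2 or 3, or KO estradiol 1 or 2, and Cks1b without KO placebo 1 or 2 or KO estradiol 2 (up to 0.0653). Ccnd3, a D-type cyclin that opens the way from G1, was at 119 and 116 CPM in WT placebo, 82.5, 74.2 and 94.2 in WT estradiol, 107, 110 and 106 in KO placebo and 140, 163 and 137 in KO estradiol. It fell in WT by 0.49 log2 units (SE 0.11, adjusted p = 0.0393), rose in KO by 0.44 (SE 0.09, adjusted p = 0.0309) and differed between genotypes in that effect (interaction -0.94, SE 0.14, adjusted p = 0.00737). The WT call was lost in 11 settings (adjusted p up to 0.136), among them the fits without either WT placebo library, WT estradiol 1 or 2, KO placebo 1 or 2, or KO estradiol 1 or 3. The KO call was lost in 6 (up to 0.123), among them the fits without WT estradiol 1, KO placebo 1, 2 or 3, or KO estradiol 2. Ccnd2 fell in WT by 0.82 (SE 0.17, adjusted p = 0.0349) and had a KO difference of -0.52 (adjusted p = 0.102), with the WT call lost without WT placebo 1 or any WT estradiol library (adjusted p up to 0.163). Ccnd1 did not pass in WT (-0.52, adjusted p = 0.541) or KO (-0.96, adjusted p = 0.135). E2f2, an activator, was at 15.6 and 14.9 CPM in WT placebo, 10.1, 10.4 and 8.49 in WT estradiol, 17.6, 20.6 and 11.1 in KO placebo and 48.3, 64.0 and 38.7 in KO estradiol. It was lower in each WT estradiol library than in WT placebo, and in KO it rose by 1.61 (SE 0.22, adjusted p = 0.00551), with an interaction of -2.27 (SE 0.34, adjusted p = 0.0093) that was lost without WT placebo 2 (adjusted p = 0.0577). E2f8, a repressor of the family made late in S phase, rose in KO by 1.68 (SE 0.22, adjusted p = 0.00432), and Ccna2, the cyclin of S phase, by 1.40 (SE 0.19, adjusted p = 0.00532).

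Of the 7 inhibitors of cyclin-dependent kinases, 2 rose in KO and 0 were called in the other comparisons in edgeR, with 2 at an unadjusted p under 0.05 in WT, 2 in the interaction, 2 under placebo and 3 under estradiol, and DESeq2 called 1 lower in WT and, in KO, 2 higher and 1 lower. The 2 were Cdkn2d at 0.72 (SE 0.13, adjusted p = 0.0174) and Cdkn2c at 0.57 (SE 0.13, adjusted p = 0.0445), and both calls were lost without KO placebo 1, 2 or 3 or KO estradiol 2 (adjusted p up to 0.0668 and 0.167), that of Cdkn2c also without any WT estradiol library or KO estradiol 1. Cdkn1a (p21) had differences of 0.18 in WT and 0.09 in KO, and Cdkn1c (p57), a regulator of cartilage growth, of -0.76 (adjusted p = 0.0574) and -0.08.

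Genes of mitosis, which act after S phase, showed another pattern in WT. The 30 mitosis genes had a median log2 difference of 0.62 with estradiol in WT with 30 of 30 above 0, whereas the median of the 40 S phase genes was -0.10. None of the 30 was called in edgeR, 29 had an unadjusted p under 0.05 and DESeq2 called 6. That median was 0.40 without WT placebo 1 and 0.97 without WT placebo 2, where edgeR called 3. In KO all 30 rose, at a median of 1.28 against 0.52 for the S phase genes, led by Top2a (log2 1.40, adjusted p = 0.00197) and Kif11 (log2 1.47, adjusted p = 0.00402), with Mki67, the common marker of cycling cells, at 1.47 (adjusted p = 0.00562). The KO count was 14, 17 and 22 when KO placebo 1, 2 or 3 was left out, and 17 when KO estradiol 2 was. The interaction had a median of -0.59 over the mitosis genes with 30 of 30 below 0, beside -0.56 for the S phase genes with 39 of 40 below 0. It called 0 of 30 in edgeR, with 12 at an unadjusted p under 0.05 and 3 called lower in DESeq2. Under estradiol 3 of 30 were higher in KO than in WT (Mki67, Top2a and Kif11). Of these only Mki67 was followed over the alternative settings. Mki67 lost the call without KO estradiol 1 or 2 (adjusted p up to 0.0654).

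Set against each other within a library, the summed S phase level was 1.56 and 1.05 times the summed mitosis level in WT placebo and 0.651, 0.798 and 0.903 times in WT estradiol. In KO the ratio was 1.58, 1.38 and 1.11 under placebo and 0.628, 0.950 and 0.916 under estradiol. The estradiol libraries had the lower ratios in both genotypes, without overlap. In WT the mitosis sum differed (512 and 741 CPM under placebo, 1171, 940 and 821 under estradiol) while the S phase sum stayed within 742 to 796 CPM, and in KO both sums were higher under estradiol.

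The authors' deposited tables of pairwise comparisons were read for the members. At an adjusted p under 0.05 the authors' deposited table for estradiol in KO holds 22 members higher and 0 lower, where 4.71% of its genes are higher and 2.81% lower. The authors' deposited table for KO against WT under estradiol holds 15 higher and 0 lower (8.08% and 4.95% of its genes). The authors' deposited tables hold 0 members for estradiol in WT (1.34% of its genes higher and 2.01% lower) and 0 for genotype under placebo (0.114% and 0.127%). DESeq2 run here on the same counts called 21 members higher in KO with estradiol and 0 lower (4.53% and 1.68% of all genes), and 16 higher and 0 lower in KO than in WT under estradiol (8.71% and 5.07%).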

How the data were processed

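Poly-A RNA libraries were sequenced. The submitters' processing notes name the tools bcl2fastq 2.17 and TopHat with build mm9. The counting program, its annotation and its use of strand are not given here in any source, so overlapping and near-identical genes are uncertain. The deposited table holds raw counts per gene symbol, with 0 columns left unmapped. Pairwise comparisons were deposited by the authors as tables with a mean signal (scaled counts), log2 fold changes, a test score and p-values, per the file headers. From these, counts of members at an adjusted p-value under 0.05 are quoted.

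In R 4.3.3, edgeR 4.0.16 kept 14531 genes by filterByExpr at its default minimum counts (10 in a library, 15 in total) and scaled libraries by TMM. A robust quasi-likelihood model was fitted to the 4 groups over 11 libraries (7 residual degrees of freedom, common biological variation 15.8%). Each adjusted p is from its test with Benjamini-Hochberg adjustment over all genes tested, and a call is an adjusted p under 0.05. SE is the log2 difference over the square root of F. Intervals are 95% on the 7 residual degrees of freedom and are somewhat wider than the test implies. Mcm2 in WT, for example, had an unadjusted p of 0.0499 in the quasi-likelihood test and an interval of -0.74 to 0.03. CPM are TMM-scaled. The fit was tested on simulated counts. At a 1.5-fold change it recovered 23.5% of the changed genes for estradiol in WT and 29% in KO. At a 2-fold change these shares were 71% and 77%. By the recovery at 1.5-fold, many changes of that size would be missed. Of the calls at 1.5-fold, 7.84% in WT and 3.33% in KO were false. The labels number the libraries without saying what a number shares. Deviations of same-numbered libraries correlated at 0.290, 0.386 and 0.142 between KO placebo and KO estradiol, so the block is given beside results there, and at -0.203 to 0.198 between the other groups, where not every pair was over 0.1. No pair of libraries of a group agreed within sampling noise.

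Members, gene lists and alternatives were chosen with earlier results of these data known. Values in every library are given for members called in a comparison other than estradiol in KO and for the 2 of each role with the smallest p there. Members not called in KO are named with their log2 difference, and of each other list up to 2 called genes, with Ccnd1, Cdkn1a, Cdkn1c, Mki67 and Esr1 always. Alternatives were RLE scaling, DESeq2 1.42.0, no filter, only the groups compared, the replicate number as a block, removal of Rn45s, an adjusted p under 0.1, leaving out each library, and leaving out WT placebo 2 with KO placebo 1. Some results on genes outside the 40 are not reported here.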

Additional observations from a re-analysis of the deposited data

Results flagged for a closer look

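The estradiol effect differed between genotypes, by the interaction test of edgeR (WT effect minus KO effect), for 2 members, Rrm2 at -1.21 on the log2 scale and Uhrf1 at -1.33. For Rrm2 the WT difference was small (0.05) and the KO difference large (1.26). For Uhrf1 the KO difference was 1.01 and the WT difference -0.32 (adjusted p = 0.506 in edgeR). Each WT estradiol library was below both WT placebo libraries for Uhrf1.

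Among the other cyclins and E2F factors it also differed for Ccnd3 at -0.94 (adjusted p = 0.00737), E2f2 at -2.27 (0.0093) and E2f8 at -1.56 (0.0451). The call of E2f8 was lost in 9 of 18 settings (adjusted p up to 0.239), that of E2f2 in 2 (up to 0.112) and that of Ccnd3 in 1 (0.0692, with WT placebo 2 and KO placebo 1 both left out). E2f8 was lost with any single placebo library or WT estradiol library left out, and E2f2 without WT placebo 2.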

How the results depend on the processing

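The cause of the changes below was not tested. The direction of the members' median was the same in every alternative run: -0.13 to -0.05 for estradiol in WT, 0.40 to 0.61 in KO, -0.67 to -0.46 for the interaction, -0.31 to -0.07 between genotypes under placebo and 0.30 to 0.51 under estradiol. The counts of called members moved more. For estradiol in KO (13) the count was 21 in DESeq2, 21 at an adjusted p under 0.1, 3 with only the groups compared, 5 with WT placebo 2 and KO placebo 1 both left out, and 3 to 14 with 1 library left out. For the interaction (2) it was 7 in DESeq2, 5 at an adjusted p under 0.1, 0 without that pair, and 1 to 4 with 1 library left out. For KO against WT under estradiol (15) it was 5 to 14 with 1 library left out. The 5 came without KO estradiol 2, where calls over all genes fell from 1667 to 867. With Rn45s removed the mean summed level was higher in all groups. It was 820 CPM in WT placebo (787 with Rn45s), 783 in WT estradiol (752), 727 in KO placebo (700) and 1073 in KO estradiol (1033). The KO log2 difference of 3 members not called changed sign when 1 library was left out: Cdt1 (-0.10 to 0.20, below 0 when KO placebo 3 or KO estradiol 2 was out), Ccne1 (-0.043 to 0.40, below 0 when KO placebo 3 was out) and Ung (-0.16 to 0.020, above 0 when KO placebo 1 or KO estradiol 1 was out). Ung was also at 0.0096 with the pair left out. With the replicate block 14 members were called in KO (629 genes in all against 396 without it), 3 in the interaction (301 against 167), 17 between genotypes under estradiol, 0 in WT and 0 under placebo, and in KO the block changed the call of no member other than Pcna, Pole and Tyms. Outside the KO pairs, same-numbered libraries of the other group pairs had correlations of -0.203 to 0.198. With 2 or 3 libraries in a group, these values cannot show whether the libraries share more than a number. A total of 3 counts, the limit that a count of 0 allows, is 0.118 to 0.204 CPM at these depths, and groups of 2 or 3 libraries limit the precision of every value.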

Other observations

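Genes of other cell types of the joint differed between KO and WT under estradiol in directions of their own. Of the 11 osteoclast markers 7 were lower in KO, of the 9 macrophage markers 6, of the 11 endothelial markers 5, of the 11 osteoblast markers 3 and of the 15 cartilage markers 3, and 0 in these 5 lists were higher. Osteoclast sums were 12946 to 13332 CPM in WT estradiol and 8442 to 9970 in KO estradiol, and macrophage sums 962 to 1133 and 601 to 747. With estradiol in WT 2 osteoclast markers (Acp5 and Ocstamp), 2 osteoblast markers (Ibsp and Sost) and 1 endothelial marker (Emcn) were called higher in edgeR and 0 lower, and DESeq2 called 6 osteoclast, 2 osteoblast, 1 endothelial and 2 macrophage markers higher. With estradiol in KO 0 markers of these 5 lists were called in edgeR or DESeq2, with 1 of 15, 1 of 11, 0 of 11, 1 of 11 and 0 of 9 at an unadjusted p under 0.05 for cartilage, osteoblast, osteoclast, endothelium and macrophage.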
